A study of Homo sapiens with 18 samples.

Results

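CLK1, CLK2, CLK3 and CLK4, the 4 CDC-like kinases, were followed together with OGT and OGA, the enzymes of O-GlcNAc cycling, in total RNA and in polysome RNA of a human cell line. The genes were taken by symbol, 6 of the 60675 human gene rows of the count table, and all 6 were among the 26804 genes that passed the filter on low counts. They have been grouped under the idea of transcripts that keep an intron and stay in the nucleus. Counts per gene cannot test that label, since they add transcripts with and without the intron together. The narrower question asked was whether each transcript was lower on polysomes than in total RNA.

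The CDC-like kinases phosphorylate serine- and arginine-rich (SR) splicing factors, which moves those factors within the nucleus and changes which exons are joined. OGT adds single N-acetylglucosamine groups to serines and threonines of nuclear and cytosolic proteins, and OGA removes them. Several of these genes, with CLK1, CLK4 and OGT as the textbook cases, make polyadenylated transcripts that keep an unspliced (detained) intron in the nucleus, from where they can be spliced later or degraded. Such a transcript is not read by ribosomes, whereas the spliced product of the same gene is.

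The cells were HEK293T, an established human embryonic kidney line, carrying YTHDF1-ADAR, YTHDF2-ADAR or YTHDF3-ADAR. The YTHDF proteins bind mRNA that carries N6-methyladenosine, and the fused ADAR deaminase leaves A-to-G edits on the transcripts they meet. All groups carried a fusion, all were given doxycycline at 1 µg/mL for 24 h to induce it and cycloheximide at 100 µg/mL for 10 min to hold ribosomes in place, and no library without a fusion was used here. Each line had 3 libraries of total RNA and 3 of pooled polysome fractions with more than 2 ribosomes from a sucrose gradient, which makes 6 groups and 18 libraries. The labels name no clone, do not say whether total RNA came from whole cells or from the detergent lysate, and do not say whether replicates were separate cultures, so p-values measure the spread between these samples, which may be technical.

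Libraries held 42.7e6 to 67.5e6 counts. In total RNA, YTHDF1 averaged 392 CPM (a gene count relative to the scaled total of its library) in its own line against 83.2 and 68.0 in the other lines. YTHDF2 averaged 275 against 147 and 129, and YTHDF3 76.7 against 55.5 and 51.3. Each line thus had the highest mean for the gene of its own fusion, in counts that do not separate the fusion from the cell's own gene. On polysomes, YTHDF3 in its own line (74.3 to 89.1 CPM) overlapped with YTHDF1-ADAR (72.3 to 79.4 CPM). Protein-coding genes took 55.2 to 74.8% of counts in total RNA and 88.6 to 90.6% in polysome RNA. Total RNA replicate 1 also differed from replicates 2 and 3 in YTHDF1-ADAR (55.2% against 65.4 and 68.3%) and in YTHDF2-ADAR (60.4% against 68.4 and 67.7%). Libraries of these 2 lines were left out only 1 at a time. Replicate 1 of YTHDF3-ADAR stood apart in both fractions. Its total RNA held ADARB1, a deaminase gene of the ADAR family, at 1080 CPM against 1639 and 1651 in replicates 2 and 3, and results of that line are given with and without replicate 1 where they differ.

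The starts of 4 of these transcripts are shown because mRNAs that begin with a C followed by pyrimidines (TOP mRNAs, among them those of ribosomal proteins) are a class set apart by its translation, and the start is where that class is read. Each line holds the 10 bases before and the 20 bases from the start in RefSeq on GRCh38.p14, written 5′ to 3′ on the transcript's strand, and capitals mark the first 5 transcribed bases.
OGT: cgtcgccgccATTTCaagaccgtactaggt
OGA: caagcgcagtGCGGAtaaacaggaagcggg
CLK1: tgtcagctccATTTTgttgttggtgcgcga
CLK4: attctagggcGACGGcgctgccgccatttt
These windows lie at chrX:71533094-71533123 (plus strand), chr10:101818425-101818454 (minus strand), chr2:200864639-200864668 (minus strand) and chr5:178627031-178627060 (minus strand). All 6 genes matched the RefSeq table, with 8 starts in all. A first base C followed by at least 4 pyrimidines (C or T), read on the transcript's strand from the annotated start, was present at 0 of the 8 starts and at 1429 of all 35116 starts in the table (4.07%). CLK1 and OGT started with A, as the lines above show.

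The gene models differ in how much of the gene counts as exon. CLK1 (ENSG00000013441, chr2:200853009-200864744, minus strand, GRCh38) has merged exons that cover 44.1% of its span, against a median of 14.7% over 18812 protein-coding genes with more than 1 exon. CLK3 (ENSG00000179335, chr15:74598500-74645414, plus strand) covers 43.6% and holds a single merged exon of 10317 bases. CLK4 (ENSG00000113240, chr5:178602664-178630615, minus strand) covers 28.3%, and CLK2 (ENSG00000176444, chr1:155262868-155278491, minus strand) 23.4%. OGT (ENSG00000147162, chrX:71533104-71575892, plus strand) covers 22.9%, and OGA (ENSG00000198408, chr10:101784443-101818465, minus strand) 21.3%. Reads were counted over these merged exons, which include annotated models that keep an intron, so a gene's count adds detained and spliced transcripts together and cannot tell them apart. CLK3 shares 701 exon bases with EDC3 on the opposite strand, and CLK4 shares 161 exon bases with RN7SKP70, a copy of the 7SK RNA gene, on the same strand. RN7SKP70 had at most 135 counts in any library, and CLK4 at least 383 in every library. EDC3 had up to 7261 counts over its whole gene in a library, and CLK3 at least 2220 in every library. Since the strand setting of the counting is not given, reads in the CLK3 and EDC3 overlap cannot be assigned with certainty.

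Per kilobase of merged exon, the levels in total RNA of the YTHDF1-ADAR line ran from OGA at 16.1 ± 1.73 CPM per kb (SD, n = 3) through OGT at 13.5 ± 0.778 and CLK2 at 12.8 ± 0.945 to CLK1 at 4.92 ± 0.291, CLK3 at 3.09 ± 0.161 and CLK4 at 2.01 ± 0.279. OGT and CLK2 differed by less than either SD, while the other neighbours in this order differed by more than their SDs. The order of the lower 3 was the same in the total RNA of all 3 lines. Among the upper 3 it was not, since in YTHDF3-ADAR CLK2 stood at 15.2 ± 2.90 CPM per kb, above OGT at 13.0 ± 0.457. The CLK3 value rests on a length of 20443 bases, of which 10317 are a single merged exon.

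**Figure D1:**
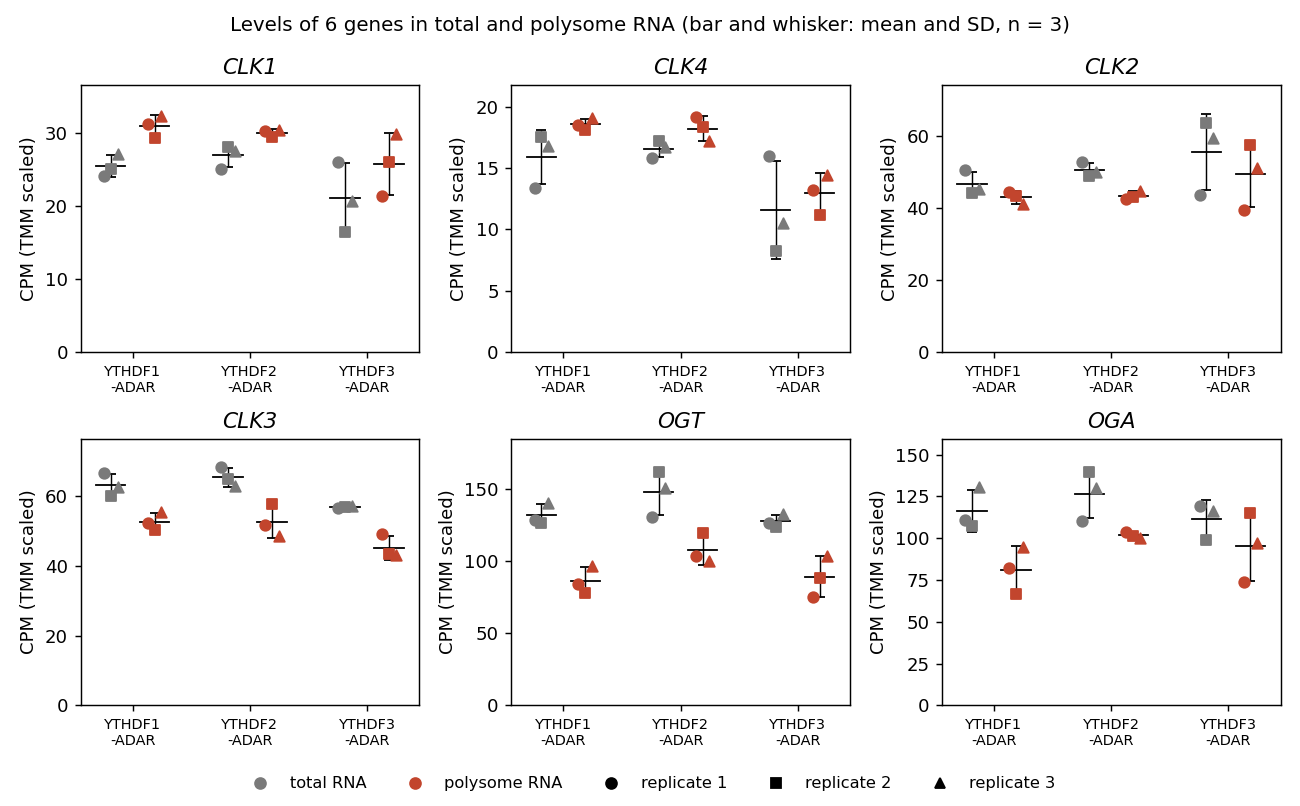
Level of each gene in CPM (scaled with TMM factors, linear axis from 0) in every library of total RNA (grey) and polysome RNA (red) of the 3 lines. Circles, squares and triangles are replicates 1, 2 and 3, and the black bar and whisker are the mean and SD of 3 libraries. OGT lies lower on polysomes in every line without overlap, and in the total RNA of YTHDF3-ADAR replicate 1 lies above replicates 2 and 3 for CLK1 and CLK4 and below them for CLK2.

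Of the 6 transcripts, OGT and CLK3 were lower in polysome RNA than in total RNA in all 3 lines, OGA was lower in YTHDF1-ADAR, and CLK1, CLK2 and CLK4 passed the test in no line. The fit behind these calls used all libraries and did not pair them by replicate number. With that pairing CLK2 was also called lower in YTHDF2-ADAR. The question was how much of each transcript is carried by ribosomes. Counts of members called were 3 lower in YTHDF1-ADAR, 2 lower in YTHDF2-ADAR and 2 lower in YTHDF3-ADAR, with 0 higher in each line. Of all genes tested, 11.9%, 9.04% and 12.1% were called lower and 9.26%, 6.71% and 8.01% higher in those lines, by edgeR's quasi-likelihood test with Benjamini-Hochberg adjusted p under 0.05. Values compare fractions scaled to a common total, so they are shares of each fraction and not molecules per cell, and fewer cells of a kind and less RNA per cell cannot be told apart in bulk RNA.

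OGT, the transferase, had 128.6, 126.1 and 140.3 CPM in the total RNA replicates 1, 2 and 3 of YTHDF1-ADAR and 83.9, 77.9 and 96.7 CPM on polysomes. In YTHDF2-ADAR the total RNA values were 130.3, 161.8 and 150.4 CPM and the polysome values 103.5, 119.4 and 99.7. In YTHDF3-ADAR they were 126.4, 123.5 and 132.3 CPM in total RNA and 75.0, 88.4 and 103.3 on polysomes. Every polysome library of OGT was thus below every total RNA library of the same line, a pattern that 22.3%, 21.5% and 15.2% of all tested genes showed in the 3 lines. Its log2 fold change, polysome over total, was -0.61 ± 0.12 (SE, n = 3 against 3, edgeR adjusted p = 0.00247) in YTHDF1-ADAR, -0.46 ± 0.12 (adjusted p = 0.0178 by edgeR) in YTHDF2-ADAR and -0.52 ± 0.12 (adjusted p = 0.00741 by edgeR) in YTHDF3-ADAR. The call in YTHDF2-ADAR was lost, with edgeR adjusted p from 0.0655 to 0.0909, when total RNA replicate 2 or 3 or polysome replicate 1 or 3 was left out. In YTHDF3-ADAR without replicate 1 of both fractions the change was -0.34 ± 0.12 (edgeR adjusted p = 0.0425).

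OGA, the enzyme that removes what OGT adds, had 111.0, 107.4 and 130.8 CPM in total RNA of YTHDF1-ADAR and 82.4, 66.4 and 94.6 CPM on polysomes. In YTHDF2-ADAR it had 110.5, 139.5 and 129.8 CPM in total RNA and 103.9, 101.3 and 100.2 on polysomes. The fractions did not overlap in these 2 lines, but in YTHDF3-ADAR they did, with 119.4, 98.6 and 116.2 CPM in total RNA and 73.8, 115.3 and 96.9 on polysomes. OGA fell by 0.52 ± 0.15 on the log2 scale in YTHDF1-ADAR (edgeR adjusted p = 0.0250). Its change was -0.31 ± 0.15 in YTHDF2-ADAR (edgeR adjusted p = 0.192) and -0.22 ± 0.15 in YTHDF3-ADAR (edgeR adjusted p = 0.341), neither past the threshold. The YTHDF1-ADAR call was lost when total RNA replicate 1 or 3 or polysome replicate 1 or 2 was left out, with edgeR adjusted p from 0.0503 to 0.126. Without replicate 1 the YTHDF3-ADAR value was 0.05 ± 0.15 (edgeR adjusted p = 0.831).

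CLK3 was the kinase with the smallest SE. It had 66.7, 60.2 and 62.6 CPM in total RNA and 52.5, 50.4 and 55.4 on polysomes in YTHDF1-ADAR, and 68.3, 64.9 and 63.1 against 51.7, 58.0 and 48.7 in YTHDF2-ADAR. In YTHDF3-ADAR its total RNA libraries stood at 56.8, 57.1 and 57.3 CPM and its polysome libraries at 49.2, 43.4 and 43.1. All polysome libraries lay below all total RNA libraries of their line. The log2 fold changes were -0.26 ± 0.09, -0.31 ± 0.09 and -0.34 ± 0.09, with edgeR adjusted p of 0.0400, 0.0211 and 0.0116. These are small changes near the threshold, and leaving out a single library often ended the call. In YTHDF1-ADAR any of the 6 libraries did so (edgeR adjusted p from 0.0576 to 0.161), in YTHDF2-ADAR any but polysome replicate 2 (0.0507 to 0.121), and in YTHDF3-ADAR total RNA replicate 1 (0.0639) or polysome replicate 2 (0.0572). With no filter on low counts the adjusted p was 0.177, 0.0888 and 0.170.

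CLK2, the remaining kinase with lower mean values on polysomes, had 50.7, 44.3 and 45.3 CPM in total RNA of YTHDF1-ADAR and 44.6, 43.4 and 41.1 on polysomes. It had 52.9, 48.9 and 50.1 CPM against 42.5, 43.3 and 44.8 in YTHDF2-ADAR, without overlap, and 43.7, 63.8 and 59.5 against 39.5, 57.5 and 51.3 in YTHDF3-ADAR. In YTHDF3-ADAR, replicate 1 was the lowest library of both fractions. The changes of -0.12 ± 0.14, -0.22 ± 0.14 and -0.17 ± 0.14 had edgeR adjusted p of 0.585, 0.318 and 0.422. With same-numbered libraries of a line paired as a block, CLK2 fell in YTHDF2-ADAR by 0.22 (edgeR adjusted p = 0.0320), a fit in which 15.0% of all genes were called lower.

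CLK1 and CLK4, the pair best known for detained introns, were not called lower on polysomes in any line, in counts that cannot tell detained from spliced transcripts. CLK1 had 24.2, 25.0 and 27.1 CPM in total RNA of YTHDF1-ADAR and 31.2, 29.3 and 32.3 on polysomes, and 25.1, 28.1 and 27.6 against 30.3, 29.4 and 30.4 in YTHDF2-ADAR. In both of these lines every polysome library was above every total RNA library, as 26.4% and 25.4% of all genes were. In YTHDF3-ADAR the values were 26.1, 16.5 and 20.6 CPM in total RNA and 21.4, 26.0 and 29.9 on polysomes, so that replicate 1 went down where replicates 2 and 3 went up. The log2 fold changes of 0.28 ± 0.14, 0.16 ± 0.14 and 0.29 ± 0.14 did not pass the test (edgeR adjusted p of 0.169, 0.507 and 0.161).

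CLK4 also had mean values on polysomes above those in total RNA. It had 13.4, 17.6 and 16.8 CPM in total RNA of YTHDF1-ADAR and 18.5, 18.1 and 19.0 on polysomes, and 15.8, 17.2 and 16.7 against 19.1, 18.4 and 17.2 in YTHDF2-ADAR. In YTHDF3-ADAR it had 16.0, 8.21 and 10.5 CPM in total RNA and 13.2, 11.2 and 14.4 on polysomes. Replicate 1 of that line's total RNA was thus near the level of the other lines while replicates 2 and 3 were below it. The fractions did not overlap in YTHDF1-ADAR and overlapped in the other lines. The changes were 0.22 ± 0.18, 0.14 ± 0.18 and 0.16 ± 0.18 (edgeR adjusted p of 0.420, 0.680 and 0.595).

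Replicate 1 of YTHDF3-ADAR decided what that line showed for CLK1 and CLK4. Between same-numbered libraries, the polysome minus total difference of log2 CPM was -0.28, 0.65 and 0.53 for CLK1 and -0.28, 0.45 and 0.46 for CLK4 in replicates 1, 2 and 3. With replicate 1 of both fractions left out, a choice made after seeing the data, CLK1 rose on polysomes by 0.66 ± 0.11 (edgeR adjusted p = 3.07e-04) and CLK4 by 0.52 ± 0.14 (edgeR adjusted p = 0.0102). In that fit 16.3% of all genes were called higher and 13.6% lower, and CLK3 kept a change of -0.33 ± 0.09 (edgeR adjusted p = 0.0112). The share of the difference that belongs to the replicate and not to the line was not tested.

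**Figure D2:**
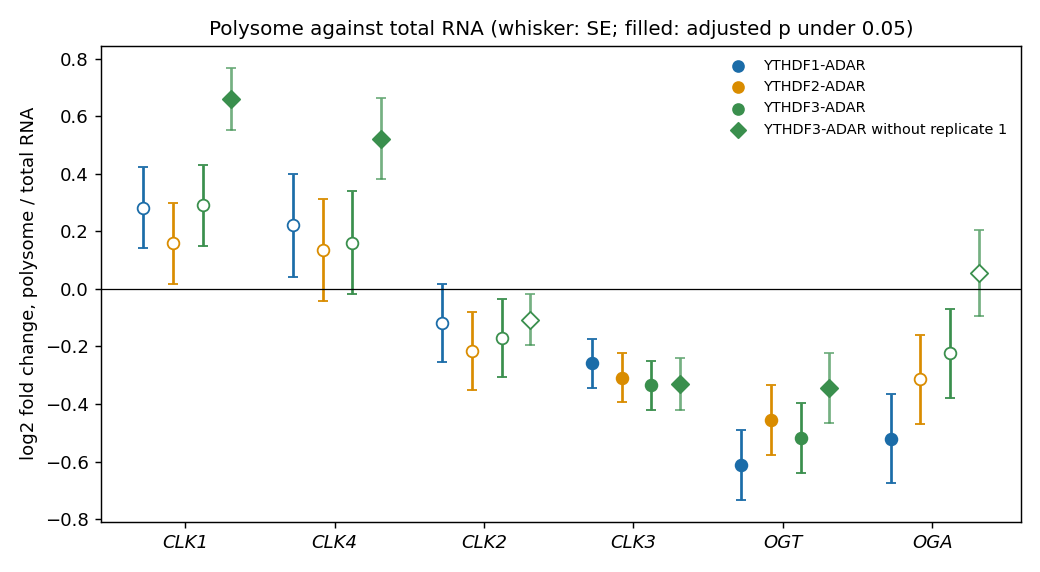
Log2 fold change of polysome over total RNA for the 6 genes in the 3 lines, with whiskers of 1 SE; filled symbols passed an adjusted p of 0.05 and open ones did not. Diamonds give YTHDF3-ADAR without replicate 1. OGT and CLK3 are filled in all 3 lines, and CLK1 and CLK4 are filled only as diamonds, at 0.66 and 0.52.

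The direction of some changes rests on how libraries are scaled. TMM factors set most genes to no change, and without them the median of all tested genes moved up by 0.43, 0.36 and 0.31 on the log2 scale in the lines in the order used above, with 87.7%, 87.0% and 80.3% of the calls higher on polysomes against 43.7%, 42.6% and 39.8% with the factors. On that scale CLK1 was higher on polysomes in all 3 lines, by 0.71, 0.51 and 0.59 (edgeR adjusted p of 0.00426, 0.0314 and 0.0191), and CLK4 in YTHDF1-ADAR by 0.64 (edgeR adjusted p = 0.0238). OGT kept negative values of -0.19, -0.10 and -0.21 that passed no test, and CLK3 turned to 0.17 and 0.06 in YTHDF1-ADAR and YTHDF2-ADAR and stood at -0.03 in YTHDF3-ADAR. Measured from the median of all genes, the values hardly moved between scalings. That follows from the arithmetic, since other factors shift all genes of a comparison by nearly the same amount, and is no test of the changes. OGT stood at -0.65, -0.49 and -0.47 below that median with the factors and at -0.65, -0.50 and -0.46 without them, and CLK1 at 0.25, 0.12 and 0.34 with them and 0.24, 0.12 and 0.34 without. Lower and higher in the paragraphs above therefore mean lower and higher than the general run of transcripts.

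The authors' deposited table of a DESeq2 comparison, which is not named there, gives OGT a log2 fold change of -0.62 (adjusted p = 3.27e-05), OGA -0.53 (0.0124) and CLK3 -0.27 (0.0219). In the same authors' deposited table CLK1 has 0.28 (0.203), CLK4 0.21 (0.505) and CLK2 -0.12 (0.612).

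Between lines, no member's polysome change differed by the test. The largest difference was that of OGA, 0.30 higher in YTHDF3-ADAR than in YTHDF1-ADAR with a 95% interval from -0.13 to 0.72, and the other members' intervals against YTHDF1-ADAR also held 0. Without replicate 1 of YTHDF3-ADAR the OGA difference was 0.54 ± 0.19 (edgeR adjusted p = 0.247), and that of CLK1 was 0.34 ± 0.14 against YTHDF1-ADAR (edgeR adjusted p = 0.301) and 0.48 ± 0.14 against YTHDF2-ADAR (edgeR adjusted p = 0.122). These values lie more than 2 SE from 0 and moved by over 1.5 times, but did not pass the test over all genes. edgeR called 0 of 26804 genes for such a difference in any of the 3 comparisons of lines, while 166, 877 and 801 genes and 0 members had an unadjusted p below 0.05. DESeq2 made 0, 1 and 9 calls over all genes and 0 among the members. With replicate 1 of YTHDF3-ADAR left out, edgeR called 265 genes for YTHDF3-ADAR against YTHDF1-ADAR and 288 against YTHDF2-ADAR, and 0 members. That OGA passed the test in YTHDF1-ADAR alone is therefore not a shown difference between lines.

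Levels themselves differed between lines for CLK4. In total RNA it was lower in YTHDF3-ADAR than in YTHDF2-ADAR by -0.52 ± 0.18 on the log2 scale (edgeR adjusted p = 0.0480), where 7.57% of all genes were called lower, and replicate 1 was the YTHDF3-ADAR library that overlapped with the other line. On polysomes it was lower in YTHDF3-ADAR than in YTHDF1-ADAR by -0.52 ± 0.18 (edgeR adjusted p = 0.0455), where 11.4% were called lower. Leaving out any single library but YTHDF3-ADAR replicate 1 ended the total RNA call (edgeR adjusted p from 0.0723 to 0.227), and any but that replicate ended the polysome call (0.0602 to 0.181). No other member was called between lines, although 18.1% of genes were called in total RNA of YTHDF3-ADAR against YTHDF1-ADAR and 25.1% on its polysomes against YTHDF2-ADAR. In YTHDF2-ADAR against YTHDF1-ADAR, where 1.83% of genes in total RNA and 2.35% on polysomes were called in either direction, 0 members were.

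Without replicate 1, more of the kinases differed in the YTHDF3-ADAR line. Against YTHDF1-ADAR, total RNA of CLK4 was lower by -0.80 (edgeR adjusted p = 1.02e-04) and CLK1 by -0.49 (7.89e-04), and CLK2 was higher by 0.37 (0.00150). Against YTHDF2-ADAR, CLK4 was at -0.86, CLK1 at -0.57, CLK3 at -0.23 and CLK2 at 0.25, all called. On polysomes without that replicate, CLK2 was higher by 0.34 against each of the other lines, and CLK4 was lower by -0.53 and -0.49. CLK3 was lower there by -0.28 (edgeR adjusted p = 0.00987) and -0.27 (0.0117), and OGA was higher against YTHDF1-ADAR by 0.39 (0.0247). In these fits 46.3% and 50.3% of all genes were called in total RNA and 47.6% and 49.0% on polysomes, so a call there says little that is particular to these kinases. The comparisons share the YTHDF3-ADAR libraries and are not independent of each other.

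Across the 18 libraries, 2 pairs of members had the highest Pearson r. The log2 levels of CLK1 and CLK4 had a Pearson r of 0.872 (Spearman 0.800), and those of OGT and OGA 0.870 (Spearman 0.866), out of 15 pairs of members. After the mean of each group was removed, r was 0.762 and 0.720. With group means kept, in the 12 libraries of the lines other than YTHDF3-ADAR, it was 0.804 and 0.951, which still holds the difference between fractions. CLK2 ran against CLK4, with r of -0.803 over all libraries and -0.791 after group means were removed. CLK1 had r of 0.665 with OGA and 0.560 with OGT after group means were removed, and of -0.06 and -0.20 over all libraries. CLK3 and OGT had r of 0.768 over all libraries and -0.01 after group means were removed, so these 2 shared the difference between fractions and not the spread of replicates. These are descriptions of libraries that share line, fraction and depth, and no p is attached.

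Over the 12595 genes whose log2 CPM averaged 2 or more, those most alike CLK1 over the 18 libraries were MTMR2 (r = 0.955), ERGIC2 (0.937) and IKZF5 (0.932). For CLK4 they were SUV39H2 (0.966), TYW3 (0.954) and EPC2 (0.952), and for CLK2 ANKZF1 (0.947), MYRF (0.932) and RNF165 (0.931). For CLK3 they were RUFY1-AS1 (0.951), NFATC2IP (0.950) and EP400P1 (0.947). OGT was nearest to AGAP9 (0.953), CCDC57 (0.941) and ECHDC2 (0.941), and OGA to ANKRD17 (0.961), ECPAS (0.958) and NUP155 (0.954). RUFY1-AS1 is an antisense gene and EP400P1 a pseudogene, whose counts may hold reads of a partner or a copy.

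Other genes of the O-GlcNAc pathway were mostly not called on polysomes against total RNA, and those called were higher, unlike OGT. Of 13 tested genes that make or recycle the sugar donor UDP-N-acetylglucosamine or handle it, 2, 2 and 5 were higher on polysomes in the 3 lines, taken in the order above, and 0 were lower, with a median log2 fold change of 0.28, 0.14 and 0.37 against 0.03, 0.03 and -0.05 over all genes. UAP1, which makes UDP-N-acetylglucosamine, rose by 0.47, 0.40 and 0.51, and GNPNAT1, which acetylates glucosamine 6-phosphate, by 0.39, 0.37 and 0.37. The 5 genes NAGK, GFPT2, RENBP, UAP1L1 and AMDHD2 had values from -0.52 to -0.10, below 0 in each line, and passed no test in these fits. With the replicate block the counts were 3 higher and 3 lower, 3 and 1, and 5 and 4 in the 3 lines, and without replicate 1 of YTHDF3-ADAR 7 higher and 1 lower in that line. Over all 26804 genes the block raised the calls in either direction from 5674, 4223 and 5392 to 9843, 8158 and 9030. Block counts of this and the following lists are to be read beside that rise. Counts without the block are to be read beside the shares of all genes called. These were 11.9%, 9.04% and 12.1% lower and 9.26%, 6.71% and 8.01% higher.

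The SR proteins, substrates of the CLK kinases, had a median of 0.29, 0.28 and 0.28 over 16 tested genes, but only 1, 0 and 1 were called higher and 1, 1 and 2 lower. With the replicate block the counts were 10, 10 and 9 higher and 2, 1 and 2 lower, in fits where 18.7%, 15.5% and 13.6% of all genes were called higher, and without replicate 1 of YTHDF3-ADAR 9 were higher and 1 lower in that line. SRSF3, an SR protein that also takes part in mRNA export, had 0.38, 0.44 and 0.35 and passed the test in no line with all libraries and no block. With the block it was called higher in all 3 lines, and without replicate 1 in YTHDF3-ADAR, at 0.36 (edgeR adjusted p = 0.0108). SRRM2, a large scaffold protein of nuclear speckles, fell by 1.36, 1.16 and 0.91 and was called in each line.

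Of 16 other kinases that act on splicing factors, 3 were lower in each line and 0 higher. They were SRPK3, a muscle-associated SR protein kinase, at -1.44, -1.23 and -1.58, CDK11A at -0.89, -0.81 and -0.52 and CDK11B at -0.71, -0.60 and -0.36. CDK11A and CDK11B are near-identical copies, and how their reads were divided is uncertain. The block gave 4 higher and 4 lower in YTHDF1-ADAR and 2 and 4 in YTHDF3-ADAR, and without replicate 1 of YTHDF3-ADAR there were 4 higher and 2 lower, CDK11B having lost its call (edgeR adjusted p = 0.0582).

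Other transcripts known for detained or retained introns were 19 in number. Of them 4, 3 and 6 were lower on polysomes and 0 higher, where 11.9%, 9.04% and 12.1% of all genes were called lower. The medians were -0.03, -0.08 and -0.16, against 0.03, 0.03 and -0.05 over all genes. CCNL2, a cyclin tied to splicing, fell by 0.92, 0.84 and 1.08. RBM5, a splicing regulator, fell by 0.48, 0.32 and 0.56, and ARGLU1, which acts in splicing and transcription, by 0.33, 0.32 and 0.40. Without normalization factors RBM5 turned to 0.04 in YTHDF2-ADAR and ARGLU1 to 0.11 and 0.04 in YTHDF1-ADAR and YTHDF2-ADAR. With the block 5, 5 and 9 were lower and 2, 2 and 1 higher, and 15.0% of all genes were called lower by that fit in YTHDF2-ADAR. Without replicate 1 of YTHDF3-ADAR 6 were lower and 3 higher in that line, where 13.6% of all genes were called lower and 16.3% higher. Most of the list was not called lower on polysomes at the level of the whole gene, although its medians lay below those of all genes. CLK1 and CLK4 were not called lower either, but their mean values leaned the other way, higher on polysomes.

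Nuclear long noncoding RNAs and nonsense-mediated decay factors were set beside them. Of 7 such RNAs, TERC (the telomerase RNA), PVT1 and MALAT1 were lower in all 3 lines and 0 were higher, and the list's medians were -0.57, -0.39 and -0.56. TERC stood far below the rest at -2.81, -2.62 and -2.84, and TUG1 was the gene of the list with values above 0, at 0.26, 0.08 and 0.30. PVT1 stood at -0.68, -0.57 and -0.82 and MALAT1 at -0.70, -0.75 and -0.70, and MALAT1 was no longer called in YTHDF3-ADAR without replicate 1 (-0.40, edgeR adjusted p = 0.375). Without that replicate TUG1 was called higher there, at 0.56 (edgeR adjusted p = 0.00804), and 3 of the RNAs were lower. Of 10 decay factors 2, 1 and 2 were lower and 0 higher, among them UPF1, the helicase of the pathway, at -0.99, -0.51 and -0.83. With the block 3, 4 and 3 decay factors were lower and 0 higher, and 15.0% of all genes were called lower by that fit in YTHDF2-ADAR. Without replicate 1 of YTHDF3-ADAR 3 decay factors were lower and 1 higher in that line, where 13.6% of all genes were called lower and 16.3% higher.

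**Figure D3:**
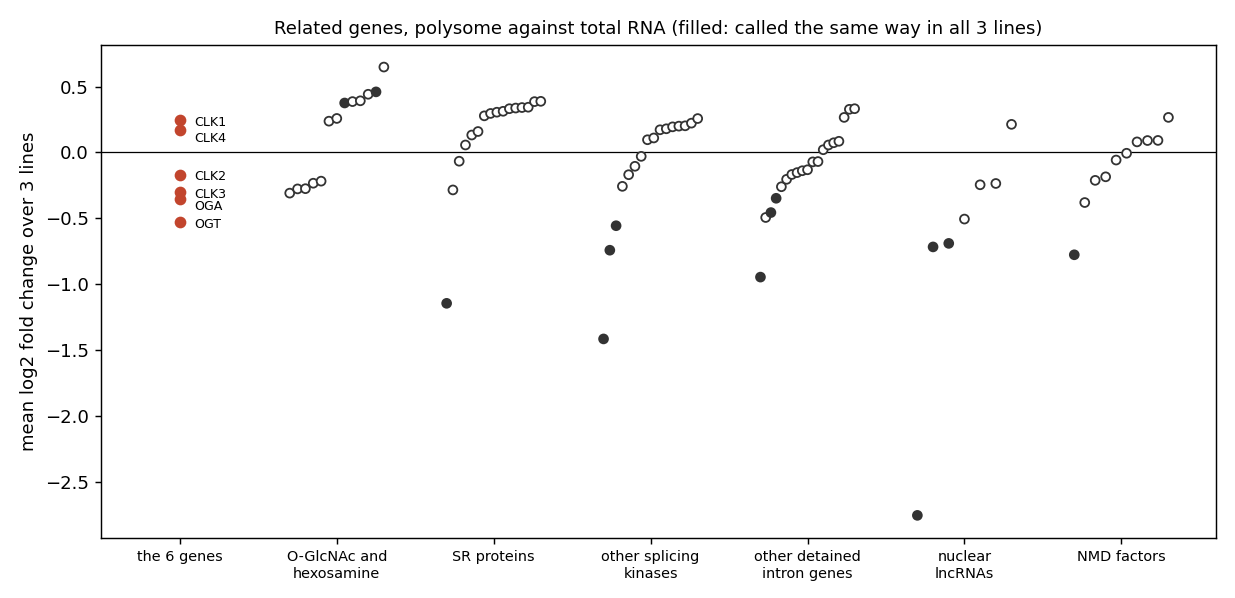
Mean log2 fold change of polysome over total RNA across the 3 lines for the 6 genes (red, named) and for the genes of 6 related lists, ordered within each list. In the 6 lists, filled points passed the test with 1 sign in every line. The red points are all solid, whether or not the gene passed the test. The filled points of the kinase, detained intron and noncoding RNA lists lie below 0, and the filled points of the O-GlcNAc list, UAP1 and GNPNAT1, lie above it.

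Editing sites were listed for 5, 5 and 6 of the 6 genes in the YTHDF1-ADAR, YTHDF2-ADAR and YTHDF3-ADAR tables, CLK2 being listed only for YTHDF3-ADAR. These tables give, per gene, a number of sites and a score summed over them for each fraction, 1 value for all replicates together, so there is no spread between libraries and the read depth behind a score is unknown. Positions of the sites were not used here. How sites were called is not given and no library without a fusion was used, so sites made by the fusions cannot be told from other sites. Score over sites is given as editing per site.

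OGT and OGA carried more sites than nearly all edited genes. OGT had 34, 25 and 38 sites and OGA 27, 31 and 41 in the 3 tables, where the median edited gene had 4, 3 and 4. These numbers lie at percentiles 98.6, 98.7 and 98.8 for OGT and 97.2, 99.3 and 99.0 for OGA. Per kb of exon OGT had 3.47, 2.55 and 3.88 sites and OGA 3.73, 4.28 and 5.66, against medians of 0.661, 0.493 and 0.818. CLK1 had 13, 13 and 17 sites, CLK4 17, 10 and 18, CLK3 5, 6 and 15, and CLK2 5 in YTHDF3-ADAR. Per kb CLK1 had 2.51, 2.51 and 3.29 sites and CLK4 2.15, 1.26 and 2.27, also above the medians, with CLK1 close to OGT in YTHDF2-ADAR. CLK2 had 1.37 per kb in YTHDF3-ADAR. CLK3 lay below the medians, at 0.245, 0.293 and 0.734.

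Editing per site did not stand out in the way the number of sites did. OGT had 1.54%, 0.884% and 2.09% per site in total RNA and 1.64%, 1.37% and 2.55% on polysomes, in tables whose medians were 2.01%, 1.19% and 1.76% in total RNA, which puts OGT at percentiles 37.0, 32.3 and 59.1 there. OGA had 1.46%, 0.695% and 2.27% in total RNA and 1.46%, 1.06% and 2.14% on polysomes. CLK3 had 1.20%, 0.961% and 1.16% in total RNA and 1.27%, 1.31% and 1.55% on polysomes. OGT and CLK3 thus had the higher value on polysomes in all 3 tables, as did 36.8%, 41.7% and 33.3% of the edited genes in the respective table.

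CLK1 and CLK4 leaned the other way in most tables. CLK1 had 2.24%, 1.50% and 3.01% per site in total RNA and 1.33%, 1.19% and 2.53% on polysomes. CLK4 had 3.50%, 1.98% and 3.24% in total RNA and 1.31%, 1.77% and 3.60% on polysomes, so it was lower on polysomes for YTHDF1-ADAR and YTHDF2-ADAR and higher for YTHDF3-ADAR. CLK2 had 1.19% in total RNA and 0.678% on polysomes. The authors' deposited tables call none of these changes for any of the 6 genes, where 2.11%, 1.39% and 3.55% of listed genes are called, so the directions are a description.

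**Figure D4:**
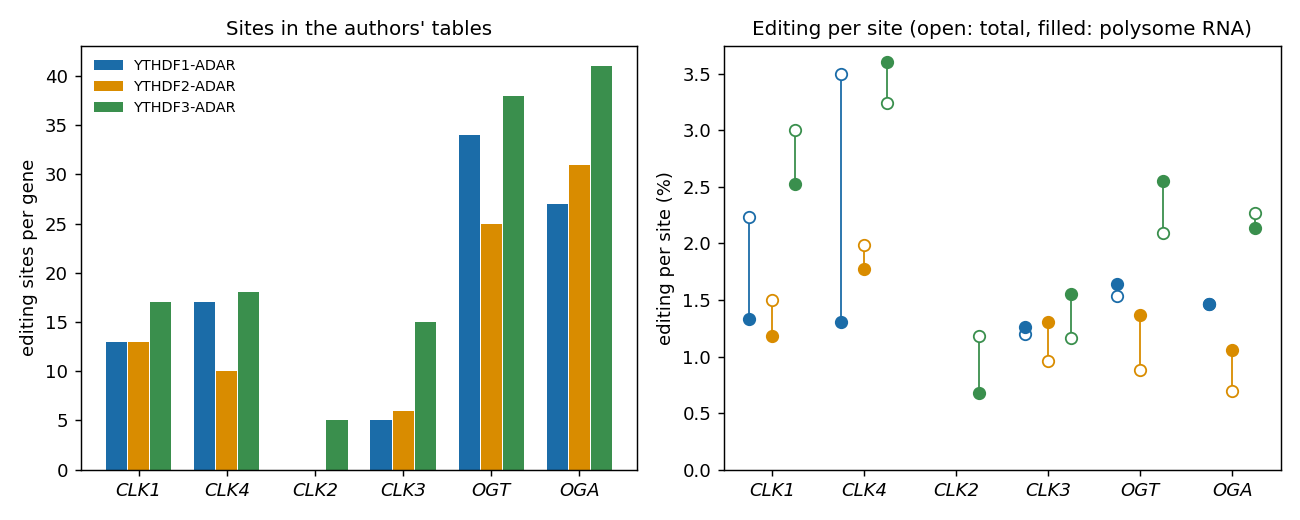
Left, number of editing sites per gene in the authors' tables of the 3 constructs. Right, editing per site in percent in total RNA (open) and polysome RNA (filled), joined by a line; each point is 1 deposited value with no replicates, and CLK2 is listed only for YTHDF3-ADAR. OGT and OGA have the most sites, up to 38 and 41, and CLK4 in YTHDF1-ADAR has the widest gap, 3.50% against 1.31%.

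Editing cannot be compared between constructs as binding. ADARB1 averaged 247, 38.9 and 1456 CPM in the total RNA of the 3 lines, and editing per site of CLK1, OGT and OGA in total RNA was lowest in YTHDF2-ADAR and highest in YTHDF3-ADAR, in the same order, whereas CLK3 and CLK4 were highest in YTHDF1-ADAR. The part of the deaminase level in these values was not tested.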

How the data were processed

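RNA of HEK293T cells with 3 YTHDF-ADAR fusions was sequenced as total and polysome RNA, 3 libraries in each of 6 groups, after rRNA depletion with a directional kit. The authors' deposited count table holds read counts per gene, made with STAR 2.7.7 and featureCounts 2.0.1 on GRCh38 (hg38), per the submitters' processing notes. The sources used here do not give the annotation release or strand setting. The authors' deposited DESeq2 table holds a mean signal, a log2 fold change, a Wald score and p-values of an unnamed comparison. The authors' deposited editing tables hold site numbers, summed scores per fraction, a natural log odds ratio (by recomputation, whatever its header says) and adjusted p-values. Nor do they give how sites were called and replicates combined.

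Counts were fitted in R 4.3.3 with edgeR 4.0.16 (filterByExpr with a minimum count of 10, TMM, 1 robust quasi-likelihood fit over 18 libraries, Benjamini-Hochberg over 26804 genes). The 12 comparisons were polysome against total RNA per line, lines within a fraction, and the difference of polysome change between lines. A row of 1 non-human sequence (at most 8 counts) was left out. Intervals cover the spread between libraries only, and reads are not independent molecules. Alternatives were DESeq2 1.42.0 (test or size factors), no normalization factors, no filter, a minimum count of 50, own libraries only, a replicate block and single libraries left out. Library totals over protein-coding genes and leaving out YTHDF3-ADAR replicate 1 were added after the data were seen. Within a line, same-numbered polysome and total libraries deviated together in 9 of 9 pairs (r from 0.200 to 0.671, 6 closest to their own number). The replicate block therefore pairs them by number. The main fit holds no block, because the labels do not say that a number pairs samples, so its SEs and calls ignore this pairing. No libraries were duplicates. The fit was tested on simulated data.

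Genes were named by rule: the 6 members, their 3 most alike genes each, and of each list up to 4 genes called the same way in all lines (the 2 largest where fewer than 2 were). The members and lists were chosen with earlier results of these data known. The planned tests of editing per library could not be run, since the tables hold 1 value over replicates. Transcript starts came from RefSeq (GRCh38.p14).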

Additional observations from a re-analysis of the deposited data

How the results depend on the processing

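Of the 6 genes in 12 comparisons under all alternatives, the values that changed sign after a call, or were called with the other sign, were those without normalization factors. CLK3 stood at 0.17 and 0.057 in YTHDF1-ADAR and YTHDF2-ADAR, and with the replicate block added at 0.18 and 0.053, while CLK2 was called higher in YTHDF1-ADAR at 0.32 with both changes. With the replicate block alone, which uses the pairing of polysome and total libraries within a line, CLK2 joined the calls in YTHDF2-ADAR and no other call of a member in polysome against total RNA changed. Replicate numbers did not pair libraries across lines (4 of 18 correlations above 0.1). There the block left 0 members called in total RNA of YTHDF3-ADAR against YTHDF2-ADAR, with 0.191 as edgeR adjusted p of CLK4. On polysomes of these lines it added CLK4, at -0.49 (edgeR adjusted p = 0.0269), which the main fit had not called.

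Members called in polysome against total RNA numbered 3, 2 and 2, all lower. Without normalization factors they were all higher: CLK1 and CLK4 in YTHDF1-ADAR, where CLK2 made it 3 with the block added, and CLK1 alone, 1 each, in the other lines. With the block added to that, 0 were called in YTHDF2-ADAR and 1, CLK1, in YTHDF3-ADAR. Without a filter on low counts 1 was lower in YTHDF2-ADAR and 1 in YTHDF3-ADAR. With own libraries only 4 were lower in YTHDF2-ADAR and 0 were called in YTHDF3-ADAR. Without replicate 1 of YTHDF3-ADAR 4 were called in that line, CLK1 and CLK4 higher and CLK3 and OGT lower. Leaving out 1 library gave 1 to 2, 0 to 2 and 1 to 3 in the 3 lines.

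Between lines, total RNA of YTHDF3-ADAR against YTHDF2-ADAR had 1 member called, 2 with DESeq2 size factors, 3 by the DESeq2 test, 4 without replicate 1, 0 without normalization factors, with own libraries or with protein-coding totals, and 0 to 2 with 1 library left out. Against YTHDF1-ADAR it had 0, then 1 without normalization factors, 3 without replicate 1 and 0 to 3 with 1 library left out. On polysomes against YTHDF1-ADAR there was 1, with 0 under DESeq2 size factors, no factors, no filter, own libraries or protein-coding totals, 4 without replicate 1 and 0 to 4 with 1 library left out. Against YTHDF2-ADAR there were 0, then CLK4 alone with the replicate block, 3 without replicate 1 and 0 to 2 with 1 library left out. Where 1 library or replicate 1 of YTHDF3-ADAR was left out, the spread was estimated over the remaining libraries of all groups. With own libraries only, it came from the libraries compared alone.

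Calls over all genes moved as well. For polysome against total RNA they were 5674, 4223 and 5392, with the block 9843, 8158 and 9030, without normalization factors 12421, 10457 and 8456, with protein-coding totals 2554, 1672 and 3157, and with own libraries 7854 in YTHDF2-ADAR and 219 in YTHDF3-ADAR. For the difference of polysome change of YTHDF3-ADAR from YTHDF1-ADAR and from YTHDF2-ADAR they were 0 and 0, from 0 to 27 and from 0 to 21 with 1 library left out (the highest without YTHDF3-ADAR polysome replicate 1), and 265 and 288 without replicate 1. The cause of these moves was not tested. The scores of editing have no depth or replicates, so no setting could be varied for them.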

Other observations

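Editing of genes related to the 6 was called by the authors' deposited tables in few cases, and no listed gene was called in all 3 tables; those named here were chosen because they were called. HIPK3, a kinase that can act on splicing regulators, was edited less on polysomes for YTHDF1-ADAR, 5.45% per site in total RNA and 1.09% on polysomes over 8 sites, and for YTHDF3-ADAR, 3.35% and 1.49% over 12 sites. For YTHDF3-ADAR, SRSF2 was lower on polysomes (1.19% and 0.531% over 7 sites), as was SRPK1, an SR protein kinase (1.30% and 0.474% over 2 sites). SRSF8 (9.51% and 12.0% over 2 sites) and LUC7L2 (0.970% and 1.31% over 4 sites) were higher there. In RNA level, and not in editing, SRSF12 was called higher on polysomes than in total RNA by edgeR. Its log2 fold change was 0.47 in YTHDF1-ADAR and 0.40 in YTHDF3-ADAR.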
